A study of Mus musculus with 6 samples.

Results

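The STAR (signal transduction and activation of RNA) family of RNA-binding proteins was examined in mouse NSC-34 cells with and without knockdown of one of its members, Qk. The members were taken by gene symbol from the deposited expression values and are Qk, Khdrbs1, Khdrbs2, Khdrbs3 and Sf1, 5 of the 23038 genes listed. NSC-34 is a hybrid line of neuroblastoma and spinal cord motor neuron cells. Messenger RNA was sequenced from 3 libraries of cells transfected with control siRNA (siNC) and 3 libraries of cells transfected with siRNA against Qk (siQk). All cells were of the same line, grown in DMEM with fetal calf serum, and were collected 3 days after transfection. The siQk arm used 3 different siRNAs against Qk, and the sources used here do not say which library received which.

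STAR proteins carry a single KH domain, an RNA-binding fold, with adjoining QUA regions (in splicing factor 1 only the one that follows the domain), and read short sequences of single-stranded RNA. Quaking, the product of Qk, is made as several isoforms, binds the letters ACUAA followed by C or U, and is known for its control of splicing and RNA stability in myelinating glia. Khdrbs1 encodes Sam68, and Khdrbs2 and Khdrbs3 encode its relatives SLM1 and SLM2, which bind A and U rich RNA, set exon choice in neuronal transcripts, and can pair with one another. Sf1 encodes splicing factor 1, which recognizes the branch point of introns during early spliceosome assembly. The branch point consensus resembles the Quaking motif.

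The Quaking motif was searched in the members' own transcripts, because the Qk transcript was the target of the knockdown and its own family is the set described here. The letters ACTAAC and ACTAAT, the DNA spelling of the motif, were searched on the transcript strand of the longest coding transcript of each gene (GENCODE release M21, GRCm38). The Qk transcript, of 8547 bases, held 7 such motifs, 3 of them ACTAAC and 4 ACTAAT, with 2 in the coding sequence and 5 in the 3′ UTR. Among 1288 transcripts of similar length (80% to 125% of it), the median was 2 motifs, 82.1% held at least 1 and 2.95% held as many. Windows around 6 of them are given below, each of 30 bases, 5′ to 3′ on the transcript, and capitals mark the motif. Half-sites, the letters TAAC or TAAT, were also searched within 20 bases on either side. The first motif listed had 3 of them, the nearest 8 bases away, and capitals mark that nearest one too.
Qk 3′ UTR, chr17:10206544-10206573, minus strand: atgttaTAATaccaacctACTAACtctgga
Qk 3′ UTR, chr17:10206455-10206484, minus strand: ttgagttcctggACTAACactgaagaacgt
Qk 3′ UTR, chr17:10204297-10204326, minus strand: tgtttctgctgcACTAATtgccaggggtgg
Qk 3′ UTR, chr17:10204263-10204292, minus strand: ggaggagcagcaACTAATccatggtaggca
Qk coding sequence, chr17:10238963-10238992, minus strand: agacttacatgtACTAATcactgtggaaga
Qk coding sequence, chr17:10209602-10209631, minus strand: ccgccaccggcaACTAACctatgaccttct

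The other members held few motifs. The motif was found once in Khdrbs3, in the coding sequence, and once in Sf1, in the 3′ UTR. Khdrbs2 held 2, both in the 3′ UTR, and Khdrbs1 held 0. At least 1 motif was present in 31.7%, 59.4%, 65.7% and 53.4% of transcripts of similar length, for Khdrbs3, Sf1, Khdrbs2 and Khdrbs1, and in 43.3% of the longest coding transcripts of 21901 genes. These matches describe the letters only, and binding was not measured in these libraries.
Khdrbs3 coding sequence, chr15:69092903-69092932, plus strand: caagaggaatggACTAACtcaagacataag
Sf1 3′ UTR, chr19:6377493-6377522, plus strand: aaggtcacgctaACTAATcctgcttgtcgg

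The libraries were of similar depth, with 43000503 to 53565950 counts and 16057 to 16516 genes with a count. Levels below are the deposited RPKM values, read counts scaled to the exon length of the gene and the total of the library. Among the libraries, siQk replicate 2 and siNC replicate 3 stood farthest from the median library, by a root mean square of 0.496 and 0.424 on the log2 scale against 0.186 to 0.305 for the other 4. Where leaving out 1 library moved the fold change of a member or of a named list gene by over 1.5 times, that library is named below with the value. The cell label was checked against marker genes. Of 8 motor neuron markers, Mnx1, Lhx3, Chat and Slc5a7 were below 1 RPKM in every library, and the summed level of the list was 10.3 to 11.9 RPKM in siNC and 14.8 to 17.3 RPKM in siQk. Most of that difference was Isl1, at a mean of 4.79 RPKM in siNC and 8.59 RPKM in siQk, whereas Slc18a3 was at 2.02 and 1.93 RPKM. The 7 sympathetic neuroblast markers summed to 317 to 499 RPKM in siNC and 377 to 474 RPKM in siQk. Markers of microglia summed to at most 0.222 RPKM in any library.

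Qk was the member that fell. Qk (Entrez 19317, GRCm38 chr17:10202601-10319854, minus strand, protein coding) had 9.67, 8.18 and 14.9 RPKM in siNC replicates 1 to 3 and 1.39, 1.71 and 1.10 RPKM in siQk replicates 1 to 3. The groups did not overlap in these deposited values, as for 8.84% of all genes tested in either direction and 3.49% with siQk below siNC, and siNC replicate 3 stood above the other siNC libraries. Each siQk library kept between 10.1% and 15.7% of the siNC mean. The log2 fold change was -3.00 (SE 0.34, 95% interval -3.56 to -2.36), and the quasi-likelihood test of edgeR gave it an adjusted p of 0.0149 over 12665 genes. The threshold for a call was p under 0.01 together with an adjusted p under 0.1. Qk was the 1 member called of the 4 tested, and it was also the 1 gene called of all genes tested, 0.00790% of them. It was the gene of smallest p under the edgeR exact test and DESeq2 too, which called 5 genes (0.0395%) and 19 genes (0.150%). Without siNC replicate 1 the fold change was -3.09 and the adjusted p 0.125 in the same test, so the call was lost. Without siNC replicate 3 the fold change was -2.67. In bulk RNA, fewer cells with Qk and less Qk RNA per cell cannot be told apart, and the values pool all Qk isoforms.

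**Figure D1:**
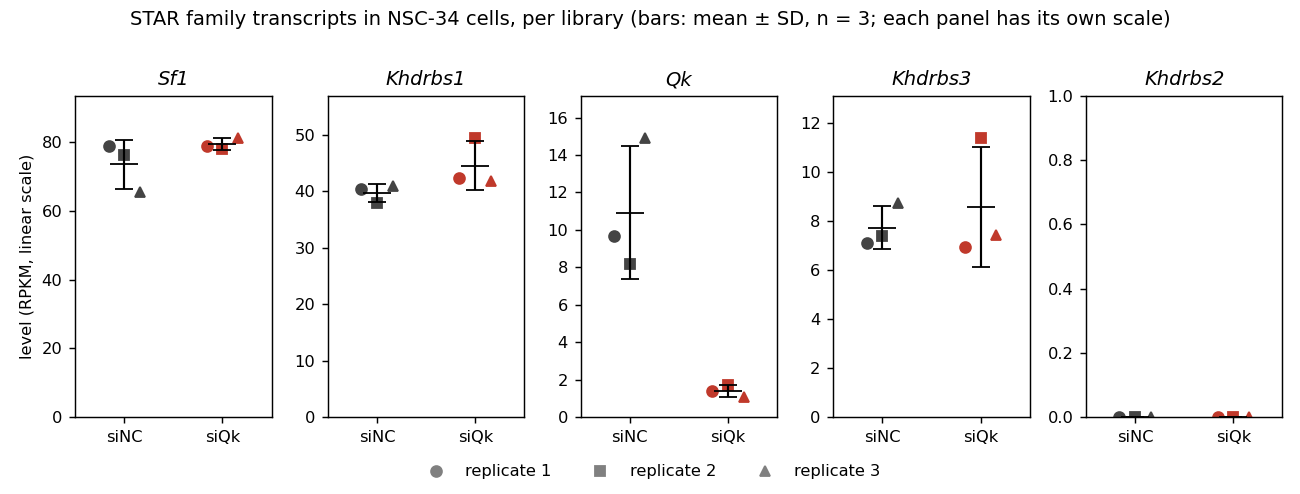
Level of each STAR family member in RPKM (linear scale, a separate scale per panel) in the siNC and siQk libraries. Points are single libraries, with the replicate number as the symbol, and bars give the mean ± SD (n = 3). The siQk points of Qk sit between 1.10 and 1.71 RPKM, below all siNC points, the points of Sf1 and Khdrbs3 overlap between the groups, and Khdrbs2 is at 0 throughout.

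The Sam68 group did not pass the test. Khdrbs1 (Entrez 20218, chr4:129703164-129742303, minus strand) had 40.4, 37.9 and 40.9 RPKM in siNC and 42.4, 49.5 and 41.8 RPKM in siQk. All siQk values lay above all siNC values in the deposited RPKM, as for 5.35% of all genes tested in that direction, and siQk replicate 2 was the highest. After TMM scaling, which corrects for differences in library composition, the groups overlapped, with siNC replicate 3 at 42.8 RPKM above siQk replicates 1 and 3 at 42.1 and 41.7 RPKM. The log2 fold change was 0.14 (SE 0.09, 95% interval -0.19 to 0.46, edgeR adjusted p 0.9996), and it was 0.06 without siQk replicate 2 and 0.08 without siNC replicate 2.

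Khdrbs3 (Entrez 13992, chr15:68928420-69101211, plus strand) had 7.08, 7.37 and 8.72 RPKM in siNC and 6.92, 11.4 and 7.41 RPKM in siQk. The groups overlapped, and 1 library, siQk replicate 2, was far above the other 5, at 147% of the siNC mean. The log2 fold change was 0.12 (SE 0.25, 95% interval -0.42 to 0.61, edgeR adjusted p 0.9996). Its direction rested on siQk replicate 2, and without it the fold change was -0.14. Without siNC replicates 1 or 2 it was 0.06 in each case, without siNC replicate 3 or siQk replicate 1 it was 0.25, and without siQk replicate 3 it was 0.21. The share of Khdrbs3 in the sum of Khdrbs1 and Khdrbs3 was 16.3% ± 1.33 in siNC and 15.9% ± 2.44 in siQk (SD, n = 3, two-sided exact permutation p = 0.9).

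Khdrbs2 (Entrez 170771, chr1:32172714-32658568, plus strand) had 0 counts in all 6 libraries and could not be tested. At these depths a count of 0 allows up to 3 counts, or 0.00625 to 0.00778 RPKM per library, which covers counting error only.

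Sf1 (Entrez 22668, chr19:6363690-6378030, plus strand) was the most abundant member. It had 78.9, 76.3 and 65.5 RPKM in siNC and 78.9, 77.9 and 81.2 RPKM in siQk. The groups overlapped, and siNC replicate 3 was the lowest library. The log2 fold change was 0.09 (SE 0.06, 95% interval -0.21 to 0.39, edgeR adjusted p 0.9996), and it was 0.03 without siNC replicate 3 and 0.14 without siNC replicate 1. Of its annotated exon bases, 70 (1.13%) overlap Gm14966 on the other strand, and the library kit kept no strand. No stretch of 75 bases from any of the 5 members' annotated transcripts occurs in transcripts of another annotated gene.

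**Figure D2:**
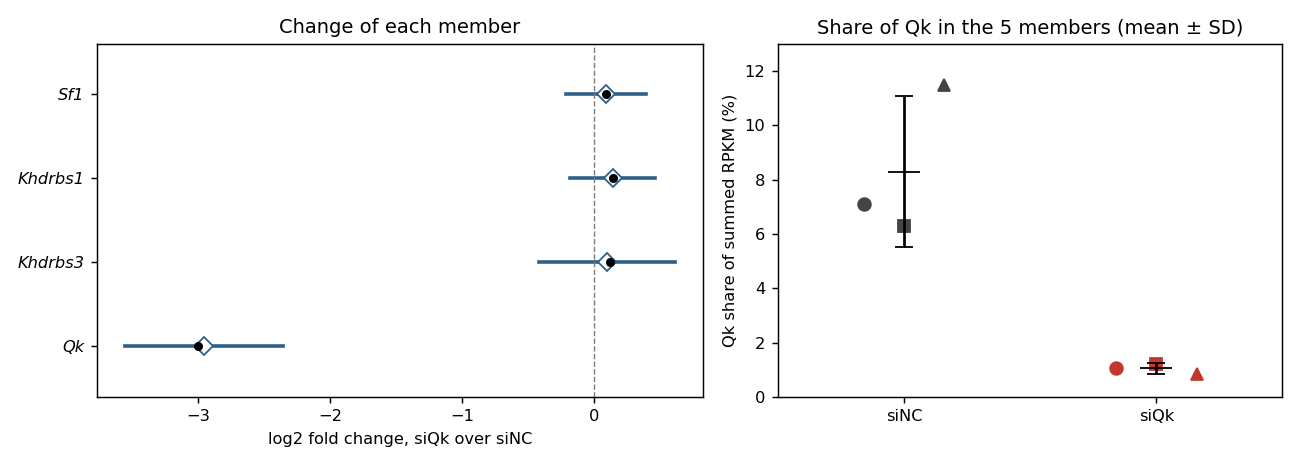
Left, log2 fold change of siQk over siNC for the 4 tested members, with the edgeR estimate as a black point, the limma estimate as an open diamond and its 95% interval as a line. Right, the share of Qk in the summed RPKM of the 5 members in percent, with points for libraries and bars for the mean ± SD (n = 3). The interval of Qk runs from -3.56 to -2.36, and those of Sf1, Khdrbs1 and Khdrbs3 include 0.

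The intervals set how large a change of the relatives these libraries leave room for. The upper bounds on the log2 scale were 0.39 for Sf1, 0.46 for Khdrbs1 and 0.61 for Khdrbs3, and the lower bounds were -0.21, -0.19 and -0.42. A p above the threshold does not show that these levels were equal in both groups.

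Summed over Khdrbs1, Khdrbs2, Khdrbs3 and Sf1, the level was 126, 122 and 115 RPKM in siNC and 128, 139 and 130 RPKM in siQk. The group means were 121 ± 5.67 and 132 ± 5.56 RPKM (SD, n = 3, two-sided exact permutation p = 0.1, the smallest p that 3 against 3 libraries allow). The siQk sums lay above the siNC sums without overlap, and the difference of 11.5 RPKM became 9.30 RPKM after TMM scaling. It was 8.34 RPKM without siQk replicate 2 (exact permutation p = 0.2) and 8.52 RPKM without siNC replicate 3 (exact permutation p = 0.2). A link between this difference and the fall of Qk was not tested. With Qk included, the sums averaged 132 ± 3.58 RPKM with control siRNA and 134 ± 5.80 RPKM with siRNA against Qk (SD, n = 3, exact permutation p = 0.7). The share of Qk in that sum was 7.11%, 6.30% and 11.5% in siNC and 1.07%, 1.22% and 0.840% in siQk. Set against each relative within a library, the log2 RPKM ratio of Qk was lower in siQk by a difference of -3.05 to Sf1, -3.10 to Khdrbs1 and -3.06 to Khdrbs3, each with groups that did not overlap (exact permutation p = 0.1, n = 3 a group). These ratios share Qk, so they restate its fall and are not independent tests.

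The order of the levels per length was the same for the relatives of Qk in every library. Sf1 was above Khdrbs1 in 6 of 6 libraries, by a mean of 1.82-fold, and Khdrbs1 was above Khdrbs3 in 6 of 6 libraries, by a mean of 5.24-fold. Both pairs had a two-sided exact sign-flip permutation p of 0.03125, the smallest that 6 libraries allow, and an adjusted p of 0.03125 over the 2 pairs. The pairs were neighbours in the order seen in these same libraries, so these p-values are no independent test of it. In siNC, Qk lay between Khdrbs1 and Khdrbs3. Khdrbs1 exceeded Qk by a mean of 3.76-fold. Within a library, Qk exceeded Khdrbs3 in 3 of 3 libraries, by a mean of 1.37-fold (log2 ratio 0.15 to 0.77). Their ranges over the siNC libraries overlapped, so the places of Qk and Khdrbs3 were not separated by range. In siQk, Khdrbs3 exceeded Qk in 3 of 3 libraries, by a mean of 6.05-fold. Among the genes tested, the mean level of Qk moved from the 50.9th percentile in siNC to the 11.3th in siQk. Those of Sf1 (91.5 and 91.9), Khdrbs1 (82.8 and 84.6) and Khdrbs3 (41.8 and 44.2) kept close places.

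The members differed in how much they varied between libraries of one group. The SD of log2 CPM (TMM-scaled counts relative to the library total) within groups was 0.079 for Sf1 and 0.114 for Khdrbs1, which placed them at the 2.27th and 7.58th percentile of all genes tested. It was 0.304 for Khdrbs3 and 0.411 for Qk, against a median of 0.263 over all genes. These comparisons were not matched for level, and the SD of Qk includes any difference between the siRNAs used in siQk. The deviations of Khdrbs1 and Khdrbs3 were highest in the same library, siQk replicate 2, at 0.21 and 0.48 above their means on the log2 scale. That of Sf1 there was 0.0074, and its lowest value was in siNC replicate 3, at -0.16.

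**Figure D3:**
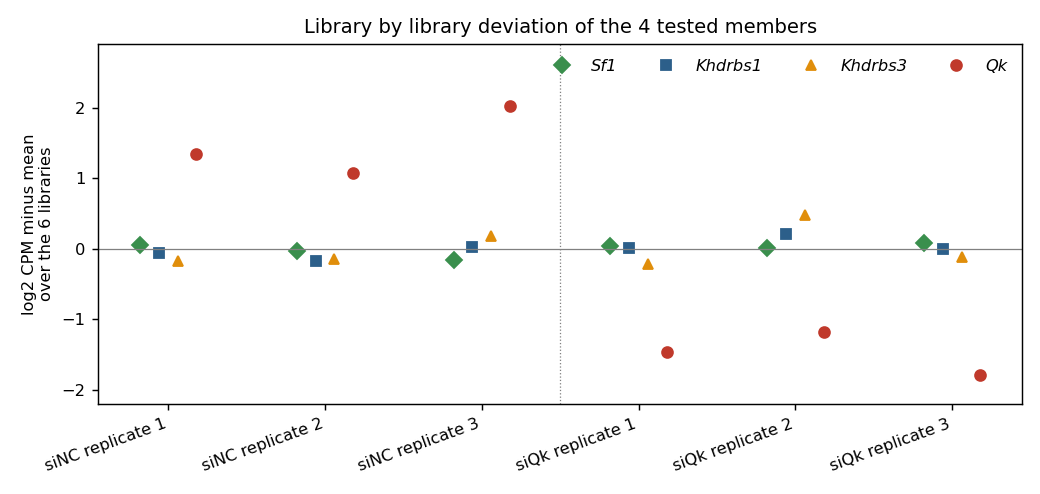
Deviation of each tested member's log2 CPM from its own mean over the 6 libraries, on the vertical axis, for each library on the horizontal axis, with a dotted line between siNC and siQk. Qk is positive in all siNC and negative in all siQk libraries, Khdrbs3 and Khdrbs1 are highest in siQk replicate 2, and Sf1 stays within -0.16 and 0.09.

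The genes whose pattern over the 6 libraries was most like that of a member were found by the root mean square difference of centred log2 CPM, where 0 is an identical pattern. For Qk these were 2810055F11Rik (now L3hypdh) at 0.683, Snap23 at 0.865 and Daam2 at 0.868, against a median of 1.54 over all genes. 2810055F11Rik encodes a dehydratase of hydroxyproline, Snap23 a SNARE protein of membrane fusion and Daam2 a formin that organizes actin. 2810055F11Rik had 4.79, 2.76 and 3.90 RPKM in siNC and 1.19, 1.23 and 1.01 RPKM in siQk. All 3 were lower in every siQk library than in any siNC library, which their choice by likeness to Qk favours (3.49% of all genes tested in deposited RPKM). None was called in the edgeR quasi-likelihood test (adjusted p 0.614, 0.9996 and 0.614). In the same order, the edgeR exact test called each (adjusted p 2.8e-04, 0.073 and 3.3e-04), as did DESeq2 (adjusted p 3.3e-05, 0.028 and 5.5e-05). The nearest pattern to Khdrbs3 was that of Dad1, a subunit of the oligosaccharyltransferase complex, at 0.0164, which reached 45.1 RPKM in siQk replicate 2, the other 5 libraries lying at 27.4 to 35.0 RPKM. The nearest to Khdrbs1 was Ppp2cb, a catalytic subunit gene of protein phosphatase 2A, at 0.0320. The nearest to Sf1 was Dpp9, a dipeptidyl peptidase gene, at 0.0213. Distances were not compared between members.

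Other genes around the family were described from 4 lists, in which 0 genes were called by the edgeR quasi-likelihood test, the edgeR exact test or DESeq2. Over all 12665 genes tested, 6438 were higher and 6227 lower in siQk, the median log2 fold change was 0.0034, 366 genes (2.89%) had an unadjusted p under 0.05, and 1079 (8.52%) had groups that did not overlap in TMM-scaled log2 CPM. Each list below is to be read against these figures. All adjusted p-values of the list genes named were 0.9996.

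Of 32 other KH domain proteins, 29 were tested, and 17 had values above and 12 below 0 (median 0.06). Their groups did not overlap for 2 genes. Fubp1, which encodes the far upstream element binding protein, was at 29.0, 32.7 and 32.7 RPKM in siNC and 43.0, 52.3 and 42.7 RPKM in siQk, a log2 fold change of 0.52 (SE 0.11). It was the 1 gene of the list at an unadjusted p under 0.05. The next by p were Ascc1, part of the activating signal cointegrator complex, at -0.56 (SE 0.40) with overlapping groups, and Mex3c, an RNA-binding ubiquitin ligase, at 0.27 (SE 0.10) without overlap. Ascc1 was at -0.30 without siQk replicate 2 and -0.34 without siNC replicate 3, and Mex3c was at 0.17 without siQk replicate 2. The list's median was 0.0078 without siNC replicate 1 and 0.090 without siNC replicate 3, and leaving out siQk replicate 3 gave 0.00099.

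The branch point recognition list holds the U2AF subunits, the SF3A and SF3B subunits, U1 proteins and associated factors. All 22 were tested, 16 with values above and 6 below 0 (median 0.06), and 0 had an unadjusted p under 0.05. Snrpc, which encodes the U1-C protein, was the 1 gene whose groups did not overlap, with 99.0, 96.1 and 94.0 RPKM in siNC and 107, 120 and 110 RPKM in siQk, a log2 fold change of 0.20 (SE 0.05). Sf3b5 was at 0.31 (SE 0.23) and Sf3b3 at -0.18 (SE 0.17), both subunits of the SF3B complex and both with overlapping groups. Without siNC replicate 3 they were at 0.14 and -0.015, Sf3b5 was at 0.50 without siNC replicate 1, and Sf3b3 was at -0.29 without siNC replicate 2. The list's median was -0.018 without siNC replicate 2, and leaving out siQk replicates 2 and 3 in turn gave 0.037 and 0.025.

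Of 21 partners and targets of the Khdrbs proteins, 18 were tested, 8 with values above and 10 below 0 (median -0.01), and 2 had an unadjusted p under 0.05. Rbmx, an hnRNP gene on the X chromosome (chrX:57383530-57393036), was at 11.8, 10.9 and 12.9 RPKM in siNC and 15.0, 19.2 and 15.5 RPKM in siQk without overlap, a log2 fold change of 0.45 (SE 0.15). Stxbp5l, which encodes a tomosyn, was at 0.73 (SE 0.34) at levels of 0.432 to 1.27 RPKM with overlapping groups. Src, the kinase that phosphorylates Sam68, was at -0.40 (SE 0.26), at -0.22 without siQk replicate 2 and at -0.61 without siQk replicate 1. The list's median was 0.017 when scaled by library totals, 0.0016 with limma and 0.0015 with the replicate number as a block, and leaving out each library in turn gave -0.067 (siQk replicate 1) to 0.075 (siNC replicate 1), with values above 0 also without siNC replicate 3 (0.010) and siQk replicate 2 (0.038), and -0.051 without siQk replicate 3 and -0.0043 without siNC replicate 2.

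Of 12 known Quaking targets, most of them from glia, 8 were tested, 3 with values above and 5 below 0 (median -0.09), and 0 had an unadjusted p under 0.05. Nfasc, a cell adhesion gene of the axon, was at -0.28 (SE 0.38), and leaving out siQk replicate 2 gave -0.027, siQk replicate 3 gave -0.55 and siNC replicate 2 gave -0.094. Sirt2, a deacetylase gene, was at -0.12 (SE 0.26), and leaving out siNC replicates 1, 2 and 3 in turn gave 0.045, -0.061 and -0.33. The list's median was 0.017 without siQk replicate 2 and -0.17 without siQk replicate 1, and leaving out siNC replicates 1, 2 and 3 in turn gave -0.15, -0.056 and -0.016. The oligodendrocyte lineage markers summed to 9.58 to 11.1 RPKM in siNC and 7.02 to 10.8 RPKM in siQk, with 7 of 10 below 1 RPKM in every library. Fibroblast markers, nearly all of whose level was Pdgfrb, summed to 3.13 to 5.34 RPKM in siNC and 0.970 to 2.98 RPKM in siQk without overlap. The part of these markers and of the motor neuron markers in the list values was not tested.

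**Figure D4:**
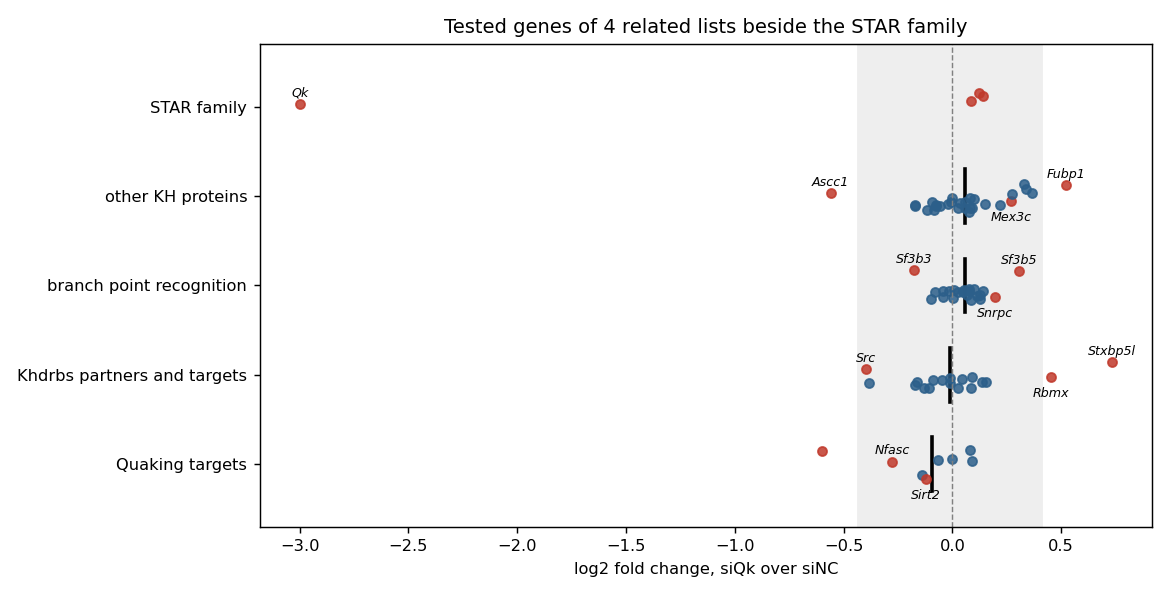
Log2 fold change of siQk over siNC (horizontal axis) for the tested STAR family members and for the tested genes of 4 lists (rows). Red points are members or the 3 genes of each list with the smallest p (those described in the text are labelled), blue points are the other list genes, black bars are list medians, and the grey band spans the 5th to the 95th percentile of all 12665 genes. Qk lies at -3.00, while the list medians lie between -0.09 and 0.06.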

How the data were processed

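Poly-A RNA libraries were made by the authors with an unstranded TruSeq kit, sequenced as pairs of 75-base reads, aligned with OLego to mouse mm10 and counted per gene with Quantas (tool versions are not given in the sources used here). The deposited expected counts, of which 21.8% to 22.9% per library were not whole, were rounded. The deposited RPKM values were rebuilt from count, exon length and library total for 100% of entries. The summed exon length is in bases.

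Counts were scaled by TMM (factors 0.957 to 1.02) after keeping the 12665 of 23038 genes with a mean log2 CPM above 0. All 6 libraries were fitted together in edgeR 4.0.16 (R 4.3.3) and tested by quasi-likelihood, with Benjamini-Hochberg adjustment over all genes kept. SEs come from the spread of log2 CPM (prior count 2), and 95% intervals from limma 3.58.1 with a trend. RPKM values were compared by exact permutation over 20 arrangements. Fits were tested on simulated data. Samples were grouped by the treatment label. The study states independent cultures, and p-values measure the spread between 3 libraries a group. Counting intervals cover counting error only.

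Genes named are the 5 members, the 3 genes of smallest p in each of 4 lists, the 3 genes nearest to Qk in pattern and the 1 nearest to each other tested member. Some items this rule or the motif search gave are not reported here. Of the list genes, 5 were matched through older symbols (Khdc4, Sf3b6, Rbmy, Tenm2, Map1b). Members and lists were chosen with earlier results of these data known. Coordinates and transcripts are from GENCODE M21 on GRCm38, matched by Entrez identifier. Alternatives covered scaling, filters, tests (with DESeq2 1.42.0), a replicate block and leaving out each library.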

Additional observations from a re-analysis of the deposited data

How the results depend on the processing

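With 3 libraries a group, the common biological coefficient of variation between libraries was 0.231, and the part of depth in the precision was not tested. The log2 fold change of Qk ran from -3.19 to -2.67 over leave-one-out fits and from -3.01 to -2.95 over the other alternatives, and its call was lost only without siNC replicate 1 (-3.09, edgeR adjusted p 0.125). The number of genes called, and of those lower in siQk, was 1 in the edgeR quasi-likelihood test, 5 and 5 with the exact test, 19 and 16 with DESeq2, and 0 to 1 over leave-one-out fits, as was the number of members called. At an adjusted p under 0.05 it stayed 1. Khdrbs1 (0.06 to 0.19) and Sf1 (0.03 to 0.14) kept their sign in all alternatives, whereas Khdrbs3 ran from -0.14 to 0.25 over leave-one-out fits. Over the same fits Dad1 ran from -0.14 (without siQk replicate 2) to 0.24 (without siQk replicate 1), Sirt2 from -0.33 (without siNC replicate 3) to 0.045 (without siNC replicate 1) and Dpp9 from -0.00081 (without siNC replicate 3) to 0.12 (without siNC replicate 1). Ppp2cb went from 0.16 to 0.061 without siQk replicate 2. List medians over leave-one-out fits ran from 0.00099 to 0.090 for other KH proteins, from -0.018 to 0.078 for branch point recognition, from -0.067 to 0.075 for Khdrbs partners and targets and from -0.17 to 0.017 for Quaking targets. With no filter on level, the median of Quaking targets was -0.049. The mean log2 RPKM ratios of Sf1 to Khdrbs1 (0.83 to 0.90) and of Khdrbs1 to Khdrbs3 (2.34 to 2.44) held in size over leave-one-out sets, where 5 libraries allow no exact permutation p under 0.0625. 2810055F11Rik, Snap23 and Daam2 were called by the exact test of edgeR (log2 fold changes -1.77, -1.23 and -1.43) and in DESeq2 (-1.77, -1.24 and -1.44). With the replicate number as a block, Qk was at -2.95 (edgeR adjusted p 0.0112) with 1 gene called. The deviations of same-numbered libraries correlated at 0.213, 0.018 and -0.17, and the samples were treated as unpaired. The cause of these shifts was not tested beyond the fewer libraries in each fit.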
